A study of Mus musculus with 16 samples.

Results

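Expression of 9 genes of acetylcholine signaling was followed across the sympathetic ganglia and tumors of Th-MYCN mice. They are Slc5a7, Chat, Slc18a3 and Ache, whose products take up choline, make and package acetylcholine and break it down, and Chrna3, Chrna5, Chrnb4, Chrna7 and Chrnb2, which encode subunits of the nicotinic receptors of ganglion neurons. They were selected by symbol from earlier results on these same libraries, so their calls between tumors and ganglia are given here as a description. All 9 were found among the 24411 genes of the tables and all 9 passed the filter on low counts. That filter can be passed through the group where a gene is high, as Slc5a7 and Chat did.

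The data were bulk RNA-seq of 16 libraries in 5 groups. Celiac ganglia came from mice 2 weeks old that lacked the MYCN transgene or were homozygous for it, each with wild-type or heterozygous Runx1t1. There were 4 transgene-free Runx1t1 wild-type ganglia, 3 transgene-free Runx1t1 heterozygous ganglia, 3 MYCN Runx1t1 wild-type ganglia and 2 MYCN Runx1t1 heterozygous ganglia, with 4 tumors from mice homozygous for MYCN with wild-type Runx1t1. In this model the Th promoter directs human MYCN to cells of the neural crest on a 129/SvJ background, and the heterozygotes carried an insertional inactivation of Runx1t1 brought in by a cross to another stock. Tumor age is not given in the labels, so tissue, age and growth of the tumor cannot be told apart.

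In a sympathetic ganglion, preganglionic axons release acetylcholine onto the principal neurons. Nicotinic receptors on those neurons, mostly built from the α3 and β4 subunits with α5 or β2 as partners, open a cation channel and carry the fast synaptic response. α7 forms receptors of its own with high calcium permeability. Most principal neurons then release noradrenaline, and a small population, such as those that supply sweat glands, is cholinergic and uses Chat, the vesicular transporter Slc18a3 and the choline transporter Slc5a7.

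Depth and tissue markers were checked first. Total counts ran from 10692299 to 38618756.98 per library, and 6 of the 12 ganglia but none of the tumors were under 20000000. The noradrenergic markers Th and Dbh were present in every library. Transgene-free wild-type replicate 2 stood apart: its lymphocyte markers summed to 473.53 TPM (a length-scaled transcript abundance) against 0.56 to 5.79 TPM in the other libraries, and its pan-neuronal markers to 7261 TPM, the lowest sum of the ganglia. Values of several members are given with and without it below. Runx1t1, the targeted gene, was at 4.24 TPM on average in 7 transgene-free ganglia, 28.3 TPM in 5 MYCN ganglia and 41.8 TPM in 4 tumors, and the human transgene has no row of its own. Runx1t1 was not lower in the libraries labelled heterozygous without MYCN (4.38, 4.36 and 6.28 TPM) than in those labelled wild type (2.78, 3.30, 4.41 and 4.19 TPM). With MYCN it was 8.83 and 16.9 TPM against 70.3, 7.90 and 37.4 TPM. An insertion need not lower the count of a gene, so this level does not check the heterozygous label.

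Chrna5, Chrna3 and Chrnb4 form 1 cluster on mouse chromosome 9 (GRCm38, GENCODE vM21). Chrna5 spans chr9:54980880-55007779 on the plus strand, and Chrna3 at chr9:55010111-55026562 and Chrnb4 at chr9:55028154-55048779 lie on the minus strand. Chrna3 and Chrnb4 are separated by 1591 bases. The converging ends of Chrna5 and Chrna3 are 2331 bases apart in GENCODE vM21, while in the RefSeq models they share 1304 bases. The annotation and strand setting of the counting are not given in the sources used here. Under the RefSeq models some reads at that end could have gone to either gene. Chat at chr14:32408203-32465989 holds the whole of Slc18a3 (chr14:32462438-32464850, 2413 bases, same strand) in its span, with 0 of its exons overlapping. The other members lie apart, Chrnb2 at chr3:89746195-89764632, Ache at chr5:137287519-137294466, Chrna7 at chr7:63098692-63212569 and Slc5a7 at chr17:54273590-54299034.

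The promoters of 3 members from RefSeq (GRCm38.p6, 250 bases before to 50 bases after the start) are shown because Chrna3 and Chrnb4 were low in every tumor and Chrnb2 was not, as described below. They are chr9:55026513-55026812, chr9:55048495-55048794 and chr3:89764583-89764882, all read 5′ to 3′ on the minus strand. Capitals mark the E-box core CANNTG, the letters bound by basic helix-loop-helix factors.
Chrna3: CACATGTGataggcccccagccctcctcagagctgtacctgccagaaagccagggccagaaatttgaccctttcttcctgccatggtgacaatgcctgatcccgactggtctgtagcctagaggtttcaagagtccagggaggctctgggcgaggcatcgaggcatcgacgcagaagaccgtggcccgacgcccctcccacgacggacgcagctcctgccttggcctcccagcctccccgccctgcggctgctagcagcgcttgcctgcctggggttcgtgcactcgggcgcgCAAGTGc
Chrnb4: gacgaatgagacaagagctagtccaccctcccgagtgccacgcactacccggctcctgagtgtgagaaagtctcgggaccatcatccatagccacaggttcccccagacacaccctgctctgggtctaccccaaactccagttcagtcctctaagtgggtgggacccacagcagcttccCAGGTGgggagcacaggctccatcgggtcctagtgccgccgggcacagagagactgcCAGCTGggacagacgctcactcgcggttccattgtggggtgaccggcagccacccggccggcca
Chrnb2: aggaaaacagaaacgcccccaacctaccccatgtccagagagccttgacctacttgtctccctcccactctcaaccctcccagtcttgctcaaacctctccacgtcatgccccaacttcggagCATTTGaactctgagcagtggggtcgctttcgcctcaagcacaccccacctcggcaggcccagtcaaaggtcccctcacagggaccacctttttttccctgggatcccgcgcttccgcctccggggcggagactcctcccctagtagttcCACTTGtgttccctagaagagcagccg
CANNTG was found 3 times in the Chrna3 window, with overlapping matches counted, 2 times in that of Chrnb4 and 2 times in that of Chrnb2. It reads the same on both strands, and 72.3% of 32851 promoters of this length hold it. The narrower form CACGTG, which MYC family proteins prefer and which is itself a CANNTG, was in none of these 3 windows. Among the members it was in the windows of Ache, Chrna7 and Chat, against 7.15% of all promoters. GGGCGG, searched on both strands, was in the windows of Chrna3 and Chrnb2 and not in that of Chrnb4, and in 35.7% of all promoters. These matches describe letters in a window and do not say which factor acts there.

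The nicotinic receptor genes were the most abundant transcripts of the set in ganglia, with Ache, and most of them were far lower in tumors. On TPM, which corrects for transcript length, the order of the means over 12 ganglia was Chrna3, Chrnb4, Chrna7, Chrnb2 and Chrna5. In the 4 tumors it was Chrnb2, Chrna7, Chrna3, Chrna5 and Chrnb4. There Chrna7 and Chrna3 (18.9 ± 10.9 and 17.6 ± 11.3 TPM; SD, n = 4) differed by less than their spread. So did Chrna5 and Chrnb4 (0.94 ± 0.87 and 0.815 ± 0.61 TPM; SD, n = 4). Because the tissue was sequenced in bulk, fewer neurons and less RNA per neuron cannot be told apart.

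Chrna3 encodes the α3 subunit, part of nearly every ganglionic receptor. Its level was 426, 113, 228 and 401 TPM in the transgene-free wild-type ganglia, 353, 483 and 375 TPM in the transgene-free heterozygous ganglia, 137, 309 and 249 TPM in the MYCN wild-type ganglia and 407 and 289 TPM in the MYCN heterozygous ganglia. The tumors had 34.3, 9.57, 12.6 and 14.2 TPM. All 12 ganglia lay above every tumor, and among ganglia the library with lymphocyte RNA was the lowest. The share of all genes separated in this way was not counted, so nothing is read from it here or for the genes below. The log2 fold change of tumors against all transgene-free ganglia was −3.84 ± 0.45 (SE; edgeR adjusted p = 8.41e-06).

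Chrnb4 encodes β4, the usual partner of α3. It stood at 165, 43.1, 104 and 171 TPM in transgene-free wild-type ganglia, 141, 212 and 151 TPM in transgene-free heterozygous ganglia, 40.3, 148 and 92.2 TPM in MYCN wild-type ganglia and 158 and 111 TPM in MYCN heterozygous ganglia. In the tumors it was 1.62, 0.92, 0.48 and 0.24 TPM. Again no tumor reached any ganglion, and the log2 fold change against all transgene-free ganglia was −7.02 ± 0.64 (SE; edgeR adjusted p = 1.51e-06), a larger drop than that of its neighbor Chrna3 on the same scale, although the difference between the genes was not tested.

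Chrna5, the accessory α5 subunit that joins α3 receptors, had the lowest mean level of the 5 receptor genes in ganglia. It ranged from 7.90 to 46.0 TPM in the 12 ganglia and from 0.41 to 2.24 TPM in the 4 tumors, again without overlap. The 2.24 TPM was that of tumor replicate 1, and the median of the 4 tumors was 0.55 TPM. The log2 fold change of Chrna5 in the same comparison was −4.59 ± 0.62 (SE; edgeR adjusted p = 2.63e-05).

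Chrna7, the α7 subunit, was less reduced. Ganglia ranged from 24.5 to 137 TPM, and tumors held 26.9, 3.76, 18.1 and 27.0 TPM, so that the tumors overlapped 1 ganglion, transgene-free wild-type replicate 2. The log2 fold change against all transgene-free ganglia was −1.90 ± 0.53 (SE; edgeR adjusted p = 0.00629).

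Chrnb2, the β2 subunit, did not follow the others. It was 43.6, 13.5, 25.7 and 45.5 TPM in transgene-free wild-type ganglia, 36.5, 55.5 and 41.7 TPM in transgene-free heterozygous ganglia, 30.1, 38.2 and 44.6 TPM in MYCN wild-type ganglia and 46.1 and 34.9 TPM in MYCN heterozygous ganglia. In the tumors it was 29.1, 21.6, 24.1 and 35.6 TPM. Tumors and ganglia overlapped in TPM, with 8 of the 12 ganglia above every tumor and transgene-free wild-type replicate 2 below them all. The log2 fold change against all transgene-free ganglia was −0.01 ± 0.26 (SE; edgeR adjusted p = 0.971). Its sign turned with several alternative settings, so no direction is given. The fold changes are from counts scaled by TMM, and in TPM the tumors lay lower relative to ganglia over the whole table. Among 14686 genes with a mean of at least 1 TPM, the median difference of tumors from transgene-free ganglia was −0.42 on log2(TPM + 1) and −0.04 on the TMM scale. The difference of Chrnb2 on log2(TPM + 1) was −0.38 ± 0.28 (SE; limma adjusted p = 0.25), close to that median.

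**Figure D1:**
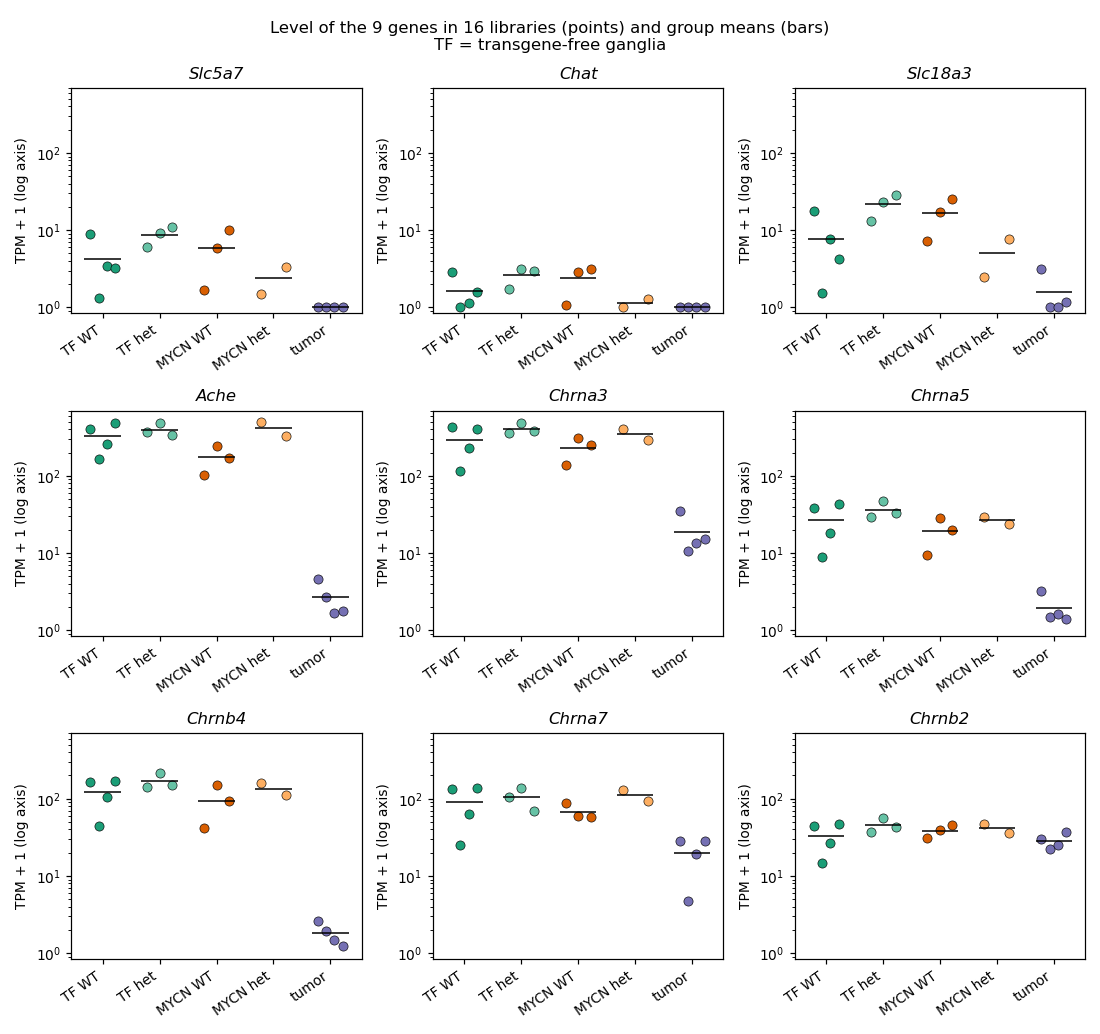
TPM + 1 on a log axis for the 9 genes in 16 libraries. Points are libraries, horizontal bars are group means, and TF stands for transgene-free ganglia. The tumors lie below all 12 ganglia for Slc5a7, Ache, Chrna3, Chrna5 and Chrnb4, and overlap them for Chat, Slc18a3, Chrna7 and Chrnb2. For Chrnb2, 8 of the 12 ganglia lie above every tumor and transgene-free wild-type replicate 2 lies below them all. The share of all genes with every tumor below every ganglion was not counted, so nothing is read from the separation.

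Ache encodes acetylcholinesterase, which ends the signal by hydrolysing acetylcholine. In ganglia it was close to the Chrna3 level, at 400, 162, 261 and 483 TPM in transgene-free wild-type, 370, 477 and 335 TPM in transgene-free heterozygous, 102, 243 and 171 TPM in MYCN wild-type and 504 and 323 TPM in MYCN heterozygous ganglia. The tumors held 3.61, 1.70, 0.68 and 0.76 TPM, and the lowest ganglion had 102 TPM. The log2 fold change against all transgene-free ganglia was −7.29 ± 0.58 (SE; edgeR adjusted p = 6.69e-07).

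The 3 genes of the cholinergic transmitter phenotype were low and uneven in ganglia, and near or at 0 in most tumors. Slc5a7, the high-affinity choline transporter, had 8.0, 0.31, 2.46 and 2.28 TPM in transgene-free wild-type, 5.10, 8.07 and 10.2 TPM in transgene-free heterozygous, 0.69, 4.96 and 9.05 TPM in MYCN wild-type and 0.50 and 2.37 TPM in MYCN heterozygous ganglia. It had 0 counts in each of the 4 tumors. Set against a floor of 3 counts per tumor library, it was at least 110-fold lower in tumors than in transgene-free ganglia, at least 104-fold lower than in MYCN wild-type ganglia and at least 29.8-fold lower than in MYCN heterozygous ganglia. Single libraries moved these bounds, to 60.9 without MYCN wild-type replicate 4 and to 10.04 without MYCN heterozygous replicate 2, or 49.5 without replicate 1 of that group. The bound against transgene-free ganglia stayed between 93.0 and 127. The floor covers counting error only.

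Chat, choline acetyltransferase, was at most 2.19 TPM in any library. It had 26, 0, 4 and 21 counts in transgene-free wild-type ganglia, 10, 81 and 64 in transgene-free heterozygous ganglia, 1, 53 and 91 in MYCN wild-type ganglia and 0 and 4 in MYCN heterozygous ganglia, against 0, 1, 0 and 0 counts in the tumors. Against the same floor it was at least 11.8-fold lower in tumors than in transgene-free ganglia and at least 15.2-fold lower than in MYCN wild-type ganglia. Against MYCN heterozygous ganglia the bound was 1.57-fold and rested on replicate 2 of that group alone, since replicate 1 had no counts. In 2 ganglia, transgene-free wild-type replicate 2 and MYCN heterozygous replicate 1, it was not detected either. Its level in those 2 cannot be set apart from the tumors at this depth.

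Slc18a3, the vesicular acetylcholine transporter, was 16.5, 0.52, 6.76 and 3.29 TPM in transgene-free wild-type, 12.3, 22.3 and 27.4 TPM in transgene-free heterozygous, 6.27, 16.01 and 24.4 TPM in MYCN wild-type and 1.45 and 6.63 TPM in MYCN heterozygous ganglia. Tumor replicate 1 had 2.13 TPM from 69 counts, tumor replicate 4 had 0.18 TPM from 8 counts, and tumors 2 and 3 had none. The tumors thus overlapped 2 ganglia. The log2 fold change against all transgene-free ganglia was −3.93 ± 1.27 (SE; edgeR adjusted p = 0.0154), and without tumor replicate 1 it was −7.02.

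Between tumors and ganglia the counts of calls were as follows. Against all transgene-free ganglia 8 of the 9 members were lower, beside a background in which 30.9% of 16665 genes were called lower and 30.6% higher. With limma on log2(TPM + 1), an alternative added after the data were seen, the same 8 were lower, beside 42.1% of genes lower and 19.4% higher. Against MYCN wild-type ganglia 7 were lower, where 20.5% of genes were, and Chrna7 missed the threshold (log2 fold change −1.47 ± 0.59, edgeR adjusted p = 0.0665). It passed without transgene-free wild-type replicate 2 (edgeR adjusted p = 0.0361), with a replicate block (edgeR adjusted p = 0.0386), by DESeq2 (adjusted p = 0.0322) and by limma on log2(TPM + 1) (adjusted p = 0.0205). Against MYCN heterozygous ganglia 6 were lower, where 23.5% of genes were, and Chat (edgeR adjusted p = 0.126) and Slc18a3 (edgeR adjusted p = 0.195) missed it. On log2(TPM + 1) Slc5a7 missed it too in that comparison (limma adjusted p = 0.187). Nothing is read from these shares, since the members were selected on these contrasts.

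The call of Slc18a3 against MYCN wild-type ganglia rested on single libraries and on the groups in the model. Its log2 fold change there was −4.35. The call was lost without MYCN wild-type replicate 3 (log2 fold change −4.34, edgeR adjusted p = 0.0561) and without MYCN wild-type replicate 4 (log2 fold change −3.90, edgeR adjusted p = 0.0751). It was also lost without tumor replicate 4 (log2 fold change −4.05, edgeR adjusted p = 0.0639) and in a model of tumors and MYCN wild-type ganglia alone (log2 fold change −4.39, edgeR adjusted p = 0.0765). In that last model Chat could not be tested and so lost its call too. Against MYCN heterozygous ganglia Slc18a3 was called without tumor replicate 1 (log2 fold change −5.44, edgeR adjusted p = 0.0062). The call of Chrna7 against MYCN heterozygous ganglia (log2 fold change −2.06) was lost with a term for library depth (log2 fold change −1.93, edgeR adjusted p = 0.0828). It was also lost without MYCN heterozygous replicate 1 (log2 fold change −1.81), which leaves that group with 1 library that is assumed to vary like the others. Without transgene-free wild-type replicate 2, the library with lymphocyte RNA, 8 members were still called against all transgene-free ganglia. The median over the 9 members was −4.59 in that comparison, and −3.93 with Slc5a7 and Chat at their floor bounds, beside a median of −0.06 over all genes tested.

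**Figure D2:**
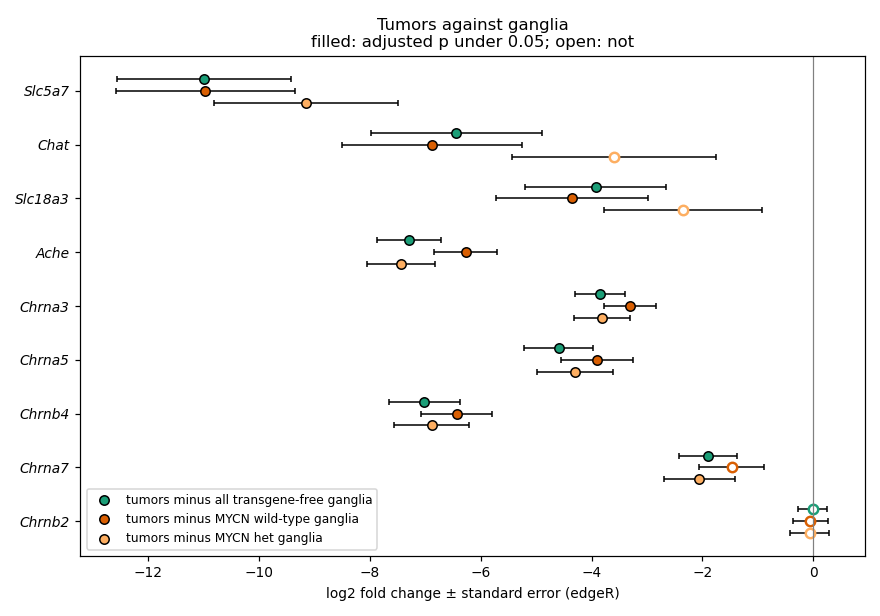
Log2 fold change of the 9 genes in tumors against 3 groups of ganglia, with the standard error from edgeR. Filled points passed an adjusted p of 0.05. Chrnb2 lies at 0 in each comparison, Chrnb4 and Ache between −7.44 and −6.27, and the fitted values of Slc5a7 and Chat, at or under the floor in tumors, depend on the prior count.

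The make-up of the receptor transcripts was then described as the share of each gene in the summed TPM of 11 neuronal subunit genes. Chrna3, Chrna5, Chrna7, Chrnb2 and Chrnb4 together made up 99.7% ± 0.4 of that sum in ganglia (SD, n = 12) and 96.5% ± 2.0 in tumors (SD, n = 4). The sum itself was 599 ± 218 TPM in ganglia and 68.1 ± 25.4 TPM in tumors.

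Shares in ganglia had the order of the levels. Chrna3 gave 52.4% ± 2.9, Chrnb4 21.1% ± 3.0, Chrna7 15.4% ± 4.8, Chrnb2 6.63% ± 1.49 and Chrna5 4.26% ± 0.67 (SD, n = 12). MYCN wild-type replicate 1 stood apart from the other ganglia, with 28.3% Chrna7, 13.2% Chrnb4 and 44.6% Chrna3. In tumors Chrnb2 gave 43.3% ± 11.2, Chrna7 25.7% ± 10.9, Chrna3 25.0% ± 7.5, Chrnb4 1.3% ± 0.93 and Chrna5 1.28% ± 0.75 (SD, n = 4). The Chrnb2 share ran from 29.9% to 57.0% in tumors and from 5.41% to 9.84% in ganglia, and the ranges did not overlap. In tumors the neighbors Chrna7 and Chrna3 in this order, and Chrnb4 and Chrna5, differed by less than their spread.

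The ratio of the β subunits showed the same shift per library. Transgene-free ganglia held between 3.19 and 4.05 Chrnb4 transcripts per Chrnb2 transcript in TPM, and MYCN heterozygous ganglia 3.42 and 3.18. MYCN wild-type ganglia held 1.34, 3.89 and 2.07, and the tumors 0.0557, 0.0425, 0.0199 and 0.00674. Without transgene-free wild-type replicate 2, which held the 3.19, the transgene-free range was 3.63 to 4.05. MYCN wild-type replicates 1 and 4 and both MYCN heterozygous ganglia lay below that range, and MYCN wild-type replicate 3 was within it. Chrna3 per Chrnb4 was 2.53 ± 0.33 in ganglia (SD, n = 12) and ranged from 10.4 to 59.0 in tumors, so that Chrnb4 was reduced more than Chrna3 in each tumor.

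**Figure D3:**
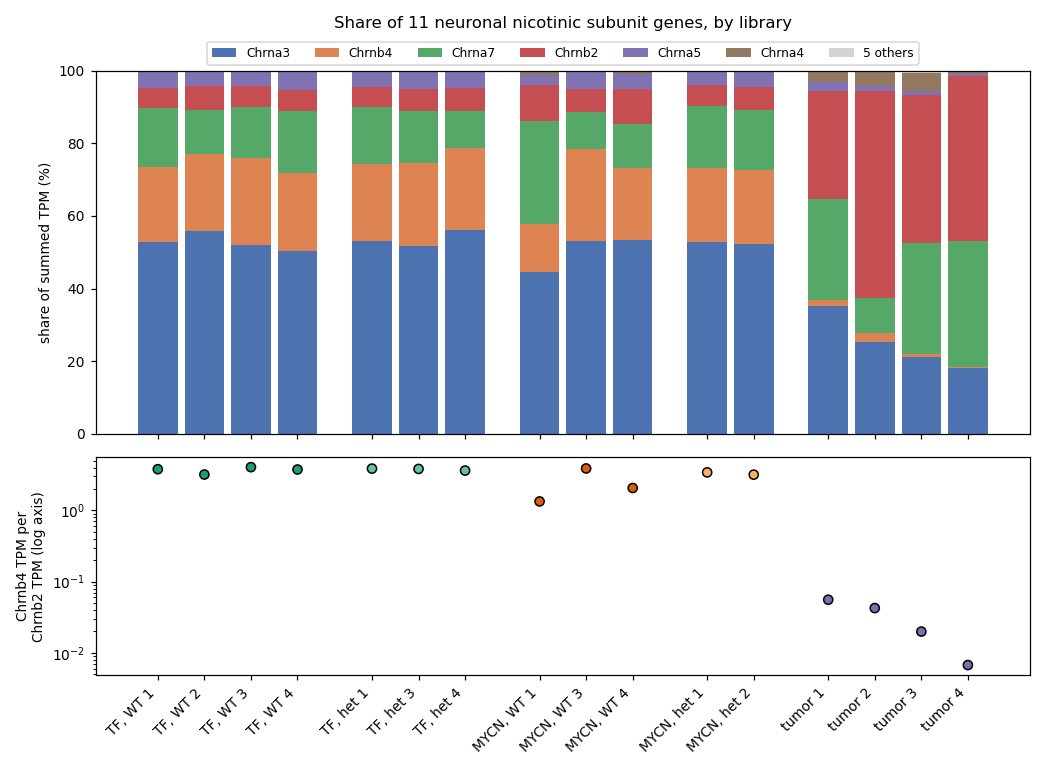
Upper panel, share (%) of each subunit gene in the summed TPM of 11 neuronal nicotinic subunit genes, 1 bar per library. Lower panel, Chrnb4 TPM per Chrnb2 TPM on a log axis, 1 point per library. Tumors have a Chrnb2 share of 29.9% to 57.0%, ganglia one of 5.41% to 9.84%.

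The other nicotinic genes were low in every group. Chrna4, a partner of β2 in the brain, was at 0.38 TPM on average in transgene-free ganglia, 2.10 TPM in MYCN ganglia and 1.96 TPM in tumors, and was called higher in tumors than in transgene-free ganglia (log2 fold change 2.77 ± 0.62, edgeR adjusted p = 0.00149). Its share reached 5.03% in 1 tumor. Of the 11 nicotinic genes outside the set, 4 could be tested in that comparison, 1 was higher and 1, the muscle subunit Chrnb1, was lower, beside 30.6% of all genes called higher and 30.9% lower. Chrna6, Chrna9 and Chrnb3 were listed at 0 in all 4 tumors.

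Within the ganglia, no member was called between any of the groups. The 9 members gave 0 calls by edgeR and 0 by DESeq2 in each of 6 comparisons, and 0 had an unadjusted p under 0.05. By edgeR the background was 0.042% of genes called for all MYCN against all transgene-free ganglia and 0.936% for MYCN wild-type against transgene-free wild-type. It was 0.0% for MYCN heterozygous against transgene-free heterozygous and 0.012% for MYCN heterozygous against MYCN wild-type. For transgene-free heterozygous against transgene-free wild-type and for the interaction of MYCN and Runx1t1 genotype it was 0.0%. DESeq2 called more genes than edgeR in each of these comparisons, and its counts are given in the section on processing. A missed threshold with 2 to 4 libraries per group does not show that levels were equal.

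For all MYCN against all transgene-free ganglia the log2 fold changes ran from −1.20 for Chat to 0.05 for Chrnb2. For MYCN wild-type against transgene-free wild-type ganglia they ran from −0.89 for Ache to 1.23 for Slc18a3. Mean Ache was 172 ± 70.8 TPM in MYCN wild-type (SD, n = 3), 326 ± 143 TPM in transgene-free wild-type (SD, n = 4), 394 ± 73.5 TPM in transgene-free heterozygous (SD, n = 3) and 413 ± 128 TPM in MYCN heterozygous ganglia (SD, n = 2). Without replicate 2 the transgene-free wild-type mean of Ache was 381 ± 112 TPM (SD, n = 3). MYCN heterozygous against MYCN wild-type gave a log2 fold change of 1.17 ± 0.56 for Ache (SE; edgeR adjusted p = 0.406), with both MYCN heterozygous libraries above the 3 MYCN wild-type libraries.

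The order of the group means of Chrna3 was transgene-free heterozygous with 404 ± 69.7 TPM (SD, n = 3), MYCN heterozygous with 348 ± 83.5 TPM (SD, n = 2), transgene-free wild-type with 292 ± 148 TPM (SD, n = 4), MYCN wild-type with 232 ± 87.4 TPM (SD, n = 3) and tumors with 17.6 ± 11.3 TPM (SD, n = 4). Without replicate 2, transgene-free wild-type ganglia averaged 352 ± 108 TPM (SD, n = 3) and passed MYCN heterozygous ganglia in this order. Neighbors among the ganglion groups differed by less than their spread. Transgene-free heterozygous ganglia were also highest for Chrnb4, Chrna5 and Chrnb2, at 168 ± 38.5, 35.5 ± 9.2 and 44.5 ± 9.8 TPM (SD, n = 3).

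MYCN wild-type replicate 1 had the lowest Ache, Chrna3, Chrna5 and Chrnb4 of the 5 MYCN ganglia. It also had the highest proliferation markers of any ganglion, a sum of 726 TPM over 4 genes, against 47.6 and 344 TPM in MYCN wild-type replicates 3 and 4 and 831 to 961 TPM in tumors. Its pan-neuronal markers summed to 12056 TPM, against 14349 and 14395 TPM in the others of its group. Their part in the receptor levels was not tested.

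Across the ganglia 7 of the members fell into 2 blocks. On log2(TPM + 1) over 12 ganglia, Slc5a7 went with Chat (Pearson's r = 0.94) and with Slc18a3 (r = 0.94), and without transgene-free wild-type replicate 2 these were 0.93 and 0.92. Chrna3 went with Chrna5 (r = 0.98), Chrnb4 (r = 0.98) and Ache (r = 0.90), and without that library these were 0.98, 0.97 and 0.93. Between the blocks r ran from 0.09 for Slc18a3 with Ache to 0.63 for Slc5a7 with Chrna5, and without that library from −0.18 to 0.51. Chrna7 and Chrnb2 were placed in neither block. Their r to Chrna3, Chrna5 and Chrnb4 was 0.67 to 0.86 over 12 ganglia and 0.43 to 0.76 without that library. With Ache r was 0.68 for Chrna7 and 0.60 for Chrnb2, and 0.65 and 0.57 without that library. Between Chrna7 and Chrnb2 r was 0.81, and 0.52 without that library. The blocks were drawn from these values, with no cut set beforehand. These values are descriptions over 12 libraries of 4 groups, with no test. The libraries differ in depth and in their pan-neuronal sums, which ran from 7261 to 20073 TPM.

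**Figure D4:**
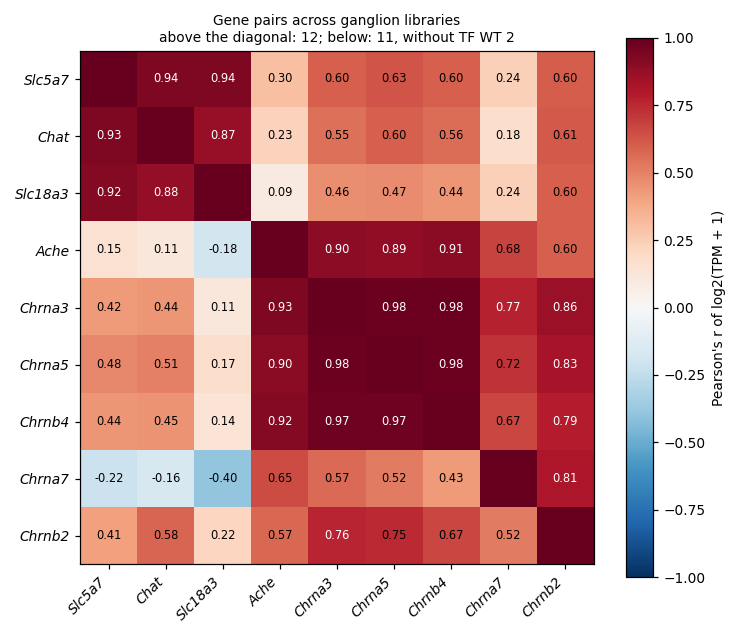
Pearson's r of log2(TPM + 1) for each pair of the 9 genes, over 12 ganglia above the diagonal and over 11, without transgene-free wild-type replicate 2, below it. Slc5a7, Chat and Slc18a3 form 1 block with r of 0.87 to 0.94, and Ache, Chrna3, Chrna5 and Chrnb4 another with r of 0.89 to 0.98.

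The block of Slc5a7, Chat and Slc18a3 varied widely within a genotype. Slc18a3 went from 0.52 to 16.5 TPM among transgene-free wild-type ganglia, and from 3.29 to 16.5 TPM without replicate 2. In MYCN heterozygous against MYCN wild-type ganglia the log2 fold changes were −1.81 ± 1.21 for Slc5a7, −3.27 ± 1.78 for Chat and −2.0 ± 1.62 for Slc18a3 (SE), and the edgeR adjusted p-values were 0.558, 0.455 and 0.634.

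Of genes outside the set, those whose pattern was most like that of Chrna3 over 16 libraries were Eml6, Olfm2, Atp9a, Ryr2 and Adam19, with Pearson's r of 0.9977, 0.9970, 0.9967, 0.9959 and 0.9957 among 14739 genes compared. Ganglia and tumors form separate clusters in these levels, so the values over 12 ganglia alone stand beside them: 0.97, 0.97, 0.99, 0.97 and 0.96. Those most like Chat were Nwd2, Tyrp1, Kcnk18, Cntn6 and the predicted gene Gm21949, with r of 0.92, 0.91, 0.90, 0.89 and 0.88, and over the 12 ganglia alone 0.90, 0.91, 0.86, 0.85 and 0.84.

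Other genes of acetylcholine handling were described from a list of 8. In tumors against transgene-free ganglia 6 were lower and 1 was higher, where 30.9% of all genes were lower and 30.6% higher, with a median log2 fold change of −1.33 beside −0.06 over all genes. Colq, the collagen tail that anchors Ache at synapses, averaged 16.2 TPM in transgene-free ganglia and 0.0225 TPM in tumors. Prima1, the membrane anchor of Ache in neurons, went the other way, from 13.7 TPM to 40.8 TPM (log2 fold change 2.02 ± 0.40, edgeR adjusted p = 0.000545). Bche, the second cholinesterase and a gene of glia, was lower (log2 fold change −2.76 ± 0.69, edgeR adjusted p = 0.00335), as was the choline transporter-like gene Slc44a1 (log2 fold change −2.15 ± 0.24, edgeR adjusted p = 5.14e-06). In MYCN ganglia Prima1 averaged 25.2 TPM. Its log2 fold change in tumors was 0.83 ± 0.50 against MYCN wild-type ganglia (edgeR adjusted p = 0.214). Against MYCN heterozygous ganglia it was 1.71 ± 0.61 (edgeR adjusted p = 0.0335).

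Muscarinic receptors, which carry the slow cholinergic response, were low as well. Of 5 genes 4 were tested and 3 were lower, beside 30.9% of all genes. Chrm2 averaged 71.4 TPM in transgene-free ganglia, 49.3 TPM in MYCN ganglia and 0.155 TPM in tumors (log2 fold change −8.33 ± 0.58, edgeR adjusted p = 3.18e-07). Chrm1, which closes the M-current in sympathetic neurons, averaged 50.0, 37.3 and 0.393 TPM in the same groups (log2 fold change −6.57 ± 0.55, edgeR adjusted p = 9.33e-07).

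Genes that assemble or modulate nicotinic receptors were divided. Of 8 listed, 7 were tested, 3 were lower and 1 was higher, beside 30.9% and 30.6% of all genes, with a median of −0.16. Lynx1, a Ly6 protein that dampens nicotinic currents, fell from 34.5 to 0.465 TPM (log2 fold change −5.75 ± 0.56, edgeR adjusted p = 2.38e-06). The chaperone gene Tmem35, known for its part in α7 assembly, fell (log2 fold change −1.27 ± 0.35, edgeR adjusted p = 0.00648), as did Lypd6, another Ly6 gene (log2 fold change −1.57 ± 0.45, edgeR adjusted p = 0.00827), and Ric3, a chaperone, had a log2 fold change of −0.16 ± 0.20 (edgeR adjusted p = 0.52). Lypd1 rose from 11.3 to 66.8 TPM on average (log2 fold change 3.09 ± 0.71, edgeR adjusted p = 0.00191). It ran from 1.95 to 23.8 TPM in transgene-free ganglia and from 17.6 to 149 TPM in tumors. Its mean in MYCN ganglia was 64.4 TPM, with a range of 7.36 to 171 TPM. Against MYCN wild-type ganglia the log2 fold change of Lypd1 in tumors was −0.13 ± 0.86 (edgeR adjusted p = 0.919). Against MYCN heterozygous ganglia it was 2.04 ± 1.09 (edgeR adjusted p = 0.141).

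Of 5 genes of receptor clustering, 2 were lower and 1 was higher, beside 30.9% and 30.6% of all genes. Musk, the agrin receptor kinase, averaged 6.43 TPM in transgene-free ganglia and 0.0125 TPM in tumors, its co-receptor Lrp4 fell (log2 fold change −2.80 ± 0.46, edgeR adjusted p = 0.000134), and Rapsn rose (log2 fold change 1.59 ± 0.48, edgeR adjusted p = 0.0101). Skeletal muscle, which also expresses Musk and Colq, had summed markers of 6.14 to 172 TPM in transgene-free ganglia and 3.42 to 15.6 TPM in tumors, and its part was not tested.

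The list of cholinergic differentiation in sympathetic neurons held 17 genes, of which 4 were higher and 6 lower in tumors, beside 30.6% and 30.9% of all genes, with a median of −0.70. Vip, a peptide of cholinergic sympathetic neurons, fell from 28.2 to 0.473 TPM on average (log2 fold change −5.51 ± 1.29, edgeR adjusted p = 0.00208). Its range was 1.89 to 79.8 TPM in transgene-free ganglia and 0.04 to 1.19 TPM in tumors. The receptor genes Ret (log2 fold change −3.31 ± 0.57, edgeR adjusted p = 0.000177) and Gfra2 (log2 fold change −2.35 ± 0.53, edgeR adjusted p = 0.00148), through which GDNF family ligands act, fell too. Tlx3, a transcription factor, rose from 1.38 to 20.2 TPM (log2 fold change 4.38 ± 0.80, edgeR adjusted p = 0.000307). In MYCN ganglia Tlx3 averaged 11.1 TPM. Its log2 fold change in tumors was 0.69 ± 0.92 against MYCN wild-type ganglia (edgeR adjusted p = 0.593). Against MYCN heterozygous ganglia it was 2.94 ± 1.22 (edgeR adjusted p = 0.0636).

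The levels of other neuronal and non-neuronal markers stand beside these results, and their counts of calls beside 30.9% of all genes lower and 30.6% higher. The 10 noradrenergic genes had a median log2 fold change of −1.27 in tumors against transgene-free ganglia, with 6 lower and 2 higher, and 10 pan-neuronal genes one of −1.24, with 6 lower and 2 higher. Satellite glia and Schwann cell markers were lower for 6 of 6 genes, with a median of −5.42 and sums of 511 to 1839 TPM in transgene-free ganglia and 12.2 to 19.97 TPM in tumors. Fibroblast markers were lower for 5 of 5 genes and proliferation markers higher for 4 of 4. Dbh, the enzyme that makes noradrenaline, fell by 4.30 on the log2 scale, and Chrna3 was 9.53% to 15.4% of the Dbh level in the 12 ganglia and 13.4% to 32.1% in the 4 tumors. The part of tissue make-up in the members' levels was not tested.

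Of 5 genes listed as neighbors of the chromosome 9 cluster, 1 was higher and 2 were lower in tumors against transgene-free ganglia, beside 30.6% and 30.9% of all genes. Psma4, a proteasome subunit gene and the nearest listed neighbor upstream of Chrna5 at 22849 bases, was called higher in tumors on the TMM scale (log2 fold change 0.61 ± 0.10, edgeR adjusted p = 9.76e-05) but not on log2(TPM + 1), where the difference was 0.16 ± 0.10 (limma adjusted p = 0.203). Ireb2, an iron regulatory gene, averaged 41.9 TPM in transgene-free ganglia and 36.3 TPM in tumors and was called on neither scale. Its direction differed between them, with a difference of −0.21 ± 0.10 on log2(TPM + 1) (limma adjusted p = 0.0776) and a log2 fold change of 0.22 ± 0.11 on the TMM scale (edgeR adjusted p = 0.0887). Hykk was not called on the TMM scale (log2 fold change −1.02 ± 0.60, edgeR adjusted p = 0.153) and was called lower on log2(TPM + 1), with a difference of −1.05 ± 0.29 (limma adjusted p = 0.00591). On that scale 0 of the 5 were thus higher and 3 were lower, beside 19.4% and 42.1% of all genes. The pair lower on both scales, Morf4l1 and Adamts7, are near these genes in humans but start at 90091665 and 90163069 on mouse chromosome 9, and so are not neighbors here.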

How the data were processed

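RNA was sequenced from celiac ganglia and tumors. Per the study's methods and the labels, the authors aligned reads to mm10 with STAR, used SAMtools and estimated gene levels with RSEM; the annotation and strand setting are not given in the sources used here. They deposited 2 tables: expected counts per gene, and TPM, which is scaled by transcript length and to 1 common total per library. The labels name polyA RNA although the kit is a total RNA kit.

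Column headers that give Runx1t1 as homozygous were read as wild type, as the sample titles say. Expected counts were rounded and fitted with edgeR 4.0.16 (R 4.3.3): TMM normalization, its default filter on low counts by group (16665 of 24411 genes kept), 1 quasi-likelihood model over 5 groups, 9 comparisons, and Benjamini-Hochberg adjustment over all genes tested at 0.05. DESeq2 1.42.0 was an alternative, and limma 3.58.1 on log2(TPM + 1) over the same genes was added after the data were seen, because tumor TPM lie lower than TMM-scaled counts relative to ganglia. All were tested on simulated data. Libraries of the same group were compared for duplicates and none was found, and libraries of different groups were not compared in this way. Deviations of same-numbered libraries correlated from -0.492 to 0.331 over pairs of groups. They were all above 0.1 for transgene-free wild-type ganglia with tumors (0.123 to 0.331) and for no other pair of groups with 3 or more shared numbers, and the labels do not tie numbers to animals, so numbers were not used as pairs and a replicate block was an alternative. Replicates are separate samples in the labels; nothing says whether they came from separate animals, so p-values measure the spread between these samples.

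Levels are the deposited TPM. Levels and shares were also taken without transgene-free wild-type replicate 2. Floors use 3 counts per library. Counts are few for Chat. Promoters came from RefSeq and positions from GENCODE. The members and lists were chosen with earlier results of these data known. Named genes were the 9 members, up to 4 genes per other list with the largest change among those called with a mean TPM of at least 1, the other receptor genes, listed neighbors, and the 5 genes most like Chrna3 and Chat. Ric3 was named after its values were seen.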

Additional observations from a re-analysis of the deposited data

Results flagged for a closer look

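In the group of 4 tumors 3 genes had 1 library far from the others. For normally spread values the rule flags about 1 in 20 groups. With 17 sets of 4 libraries looked at, that rate would give about 0.85 flags. TPM near 0 are not spread in that way and the sets share libraries, so the 3 flags are not weighed against that number. Tumor replicate 1 had 2.24 TPM of Chrna5 against 0.41 to 0.62 TPM in the other tumors, and 2.13 TPM of Slc18a3 against 0 to 0.18 TPM. Chat was 0.02 TPM in tumor replicate 2, and 0 in the others, which rests on 1 count. Where the other libraries are at 0, any count is flagged.

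For Slc5a7, Chat and Slc18a3 the heterozygous and wild-type ganglia differed in opposite directions with and without MYCN, every heterozygous library lying on 1 side of the wild-type mean when all libraries are used. Without transgene-free wild-type replicate 2, 3 of 3 transgene-free heterozygous libraries lay above the wild-type mean for Slc5a7 and Slc18a3 and 2 of 3 for Chat, and the differences in mean were 3.53, 11.8 and 0.757 TPM for Slc5a7, Slc18a3 and Chat. The difference in mean Slc5a7 was -3.465 TPM in MYCN heterozygous relative to MYCN wild-type ganglia and 4.51 TPM in transgene-free heterozygous relative to transgene-free wild-type ganglia. For Chat these differences were -1.22833 and 0.975 TPM, and for Slc18a3 -11.5267 and 13.9 TPM. The differences with MYCN depend on single libraries as well. The 3 MYCN wild-type libraries ran from 0.69 to 9.05 TPM for Slc5a7, from 0.07 to 2.19 TPM for Chat and from 6.27 to 24.4 TPM for Slc18a3. The interaction was tested and was not called for any of the 3 genes. Its log2 values were -3.06 ± 1.53 for Slc5a7, -4.61 ± 2.15 for Chat and -3.61 ± 2.06 for Slc18a3 (SE), each with an edgeR adjusted p = 0.845.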

How the results depend on the processing

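Over 628 values of the members' log2 fold changes in tumors, 1 for each member, comparison and alternative other than limma, 6 lost the call, 4 gained one and 17 turned sign, and 8 more calls were lost because the gene could not be tested. Chrnb2 accounts for 16 of the 17 and Chat for 1. Chrnb2 against transgene-free ganglia was 0.000406 with no filter, 0.0993 with the replicate block, 0.00378 with only the groups compared and from -0.165 to 0.0901 with 1 library left out, against MYCN wild-type ganglia 0.117 with the replicate block and from -0.207 to 0.0433 with 1 library left out, and against MYCN heterozygous ganglia from -0.227 to 0.123 with 1 library left out. Chat against MYCN heterozygous ganglia ranged from -4.89 to 1.36 with 1 library left out, the latter without MYCN heterozygous replicate 2. Requiring at least 10 counts in every library removed Slc5a7, Chat and Slc18a3, which left 5 calls against transgene-free and 4 against MYCN wild-type ganglia. For that filter, the replicate block and leaving 1 library out, the share of all genes called lower is not given. Nothing is read from those counts of members. With the replicate block 8, 8 and 6 members were called in the 3 tumor comparisons, Chrna7 against MYCN wild-type ganglia among them. With limma on log2(TPM + 1), added after the data were seen, these were 8, 8 and 5, beside 42.1%, 30% and 34.5% of all genes lower. Chrna7 was gained against MYCN wild-type and Slc5a7 lost against MYCN heterozygous ganglia, with no sign turned. With 1 library left out, members called ranged from 8 to 8, from 6 to 8 and from 5 to 7 in the 3 tumor comparisons. Of the 5 genes most like Chrna3, 3 to 5 stayed with 1 library left out, 3 without transgene-free wild-type replicate 2, tumor replicate 1 or tumor replicate 2. The Chrnb2 share in tumors was 60.4% in CPM without length and 38.8% to 47.8% with 1 tumor left out.

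Genes called over the table depended more on the settings. For tumors against MYCN wild-type ganglia the count was 5755, and at least 3549 with 1 library left out; against MYCN heterozygous ganglia it was 7582, and at least 4313. All MYCN against transgene-free ganglia gave 7, from 0 to 720 with 1 library left out, 18 with upper-quartile scaling, 19 with no filter, 2 with at least 10 counts, 356 by DESeq2 and 0 with the block, a depth term or only the groups compared. MYCN wild-type against transgene-free wild-type gave 156, from 0 to 1811 with 1 library left out, 238 with upper-quartile scaling, 1285 by DESeq2, 308 with a depth term and 0 with the replicate block, deep libraries or only the groups compared. MYCN heterozygous against MYCN wild-type gave 2, from 0 to 320 with 1 library left out, 4 with at least 10 counts, 264 by DESeq2, 1 with upper-quartile scaling, no filter or the block, and 0 with a depth term or only the groups compared. The 3 comparisons with 0 calls gave 14, 5 and 31 by DESeq2, 9 for MYCN heterozygous against transgene-free heterozygous with only the groups compared, and at most 1 for the interaction with 1 library left out. Members gave 0 calls between ganglia in every setting run. The cause of these shifts was not tested. The 6 shallow ganglia limit what can be seen of Chat.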
